A study of Mus musculus with 3 samples.

Results

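The splicing factor and hnRNP genes are described here in activated CD4+ T cells that lacked Rbpj, lacked Dll1 or were wild type. The genes were taken by name: every mouse gene whose symbol starts with Srsf, Hnrnp, Sf3a or Sf3b. The rule gave 43 genes in the RefSeq gene table, of which 39 had an oligonucleotide on the array and 38 were measured on all 3 arrays, out of 11543 measured genes. The 38 comprise 9 Srsf genes, 20 Hnrnp genes and 9 Sf3a or Sf3b genes. No oligonucleotide was matched to Srsf11, Hnrnpa1l2-ps, Hnrnpa1l2-ps2 or Srsf3-ps, so these are not analysed here.

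Splicing removes introns from new transcripts, and the 3 gene groups act at different points of it. SR proteins, encoded by the Srsf genes, bind exons and recruit the spliceosome, and several of them also accompany finished mRNA out of the nucleus. The hnRNPs coat new transcripts, often silence exons or bind intron sequences, and some set how long an mRNA lasts. The SF3A and SF3B complexes are parts of the U2 small nuclear ribonucleoprotein (snRNP), the particle that marks the branch point of the intron. Activated T cells are known for broad changes of exon choice, the best studied being exon skipping in Ptprc, which encodes CD45.

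RNA was measured with 1-colour oligonucleotide arrays, 1 array per genotype. The genotypes were Rbpj-/- (Rbpj KO), Dll1-/- (Dll1 KO) and wild type (WT). The mice were C57BL/6 females of 8 weeks, and their CD4+ T cells were collected 2 days after stimulation, with 20 ng of total RNA labelled with Cy3. Dll1 is carried on the cell surface and switches on Notch receptors of neighbouring cells. Rbpj binds DNA in the nucleus, where the cleaved part of Notch joins it to turn on target genes. The sources used here do not give how many mice each sample held or which cells carried the deletions. With 1 array per genotype no difference below has a replicate check, no p-value can be given, and the differences compare these arrays. The comparisons share arrays, so they are not independent of one another.

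A level here is a log2 signal with the 75th percentile of its array taken off, so a difference of 1 between arrays is a doubling of signal. The level depends on the oligonucleotide, so it is compared between arrays for one gene and not between genes. Where a gene has several oligonucleotides well above background on all 3 arrays, its value averages them. The number of arrays limits the precision. Across oligonucleotides printed repeatedly on the array, the SD of the difference between spots had a median of 0.08 and a 95th percentile of 0.25 for the Rbpj KO against WT. The corresponding values were 0.08 and 0.27 for the Dll1 KO against WT and 0.07 and 0.29 for the Rbpj KO against the Dll1 KO. Every member oligonucleotide is a single spot, so differences up to these 95th percentiles are no larger than repeated spots can show. These are percentiles of SDs and not of differences, and spots of one array share its RNA and labelling. A difference past them is therefore not shown to exceed the noise. Members that average several oligonucleotides are set against the same single-spot values.

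The arrays were checked against their labels. All 10 T cell markers, Cd3e and Cd4 among them, were above background on every array, and none of the 6 erythroid and platelet markers was. Both Rbpj oligonucleotides stood below WT in the Rbpj KO, with log2 differences of -0.35 and -0.66. The drop was partial: both stayed well above background there, at -0.09 and 1.16, against 0.25 and 1.82 in WT. The 1 Dll1 oligonucleotide was well above background on none of the 3 arrays and checks nothing. B cell markers moved with the genotype: 4 of 6 were above background in the Rbpj KO, 5 in the Dll1 KO and 3 in WT, with summed levels of 3.83, 4.37 and 4.38. Both CD8 T cell markers were above background on every array, with summed levels of -0.32 in the Rbpj KO, 0.27 in the Dll1 KO and 0.30 in WT. NK cell markers were above background for 4 of 5 in the Rbpj KO, 4 in the Dll1 KO and 3 in WT, with summed levels of 1.54, 1.46 and 1.19. That sum rests mostly on Klrd1, at 1.252 in the Rbpj KO, 0.78 in the Dll1 KO and 0.80 in WT. Of the 3 NK cell markers measured on all arrays 2 were below WT in the Rbpj KO, with a median difference of -0.24, and 2 were above WT in the Dll1 KO, with a median of 0.81. Between the knockouts 2 of the 3 were lower in the Rbpj KO, with a median of -1.35. Myeloid markers were above background for 2 of 7 in the Rbpj KO, 3 in the Dll1 KO and 2 in WT, with summed levels of 1.42, 1.30 and 1.252. The part of these cells in the differences below was not tested. In bulk RNA such as this, fewer cells of a type and less RNA per cell cannot be told apart.

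Splicing genes differed little between the arrays. Over the 3 arrays a member's level spanned a median of 0.19 log2 units, against 0.27 over all measured genes and 0.22 over the 3848 genes with the highest mean level, a set that holds 29 of the 38 members. The widest span among the 38 measured members was 0.53, for Hnrnpab. The Rbpj KO array gave the lowest of the 3 levels for 22 members, where it was lowest for 47.6% of all genes. The Dll1 KO array was lowest for 7 members, against 28.6% of all genes, and the WT array for 9 members, against 23.8%.

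**Figure D1:**
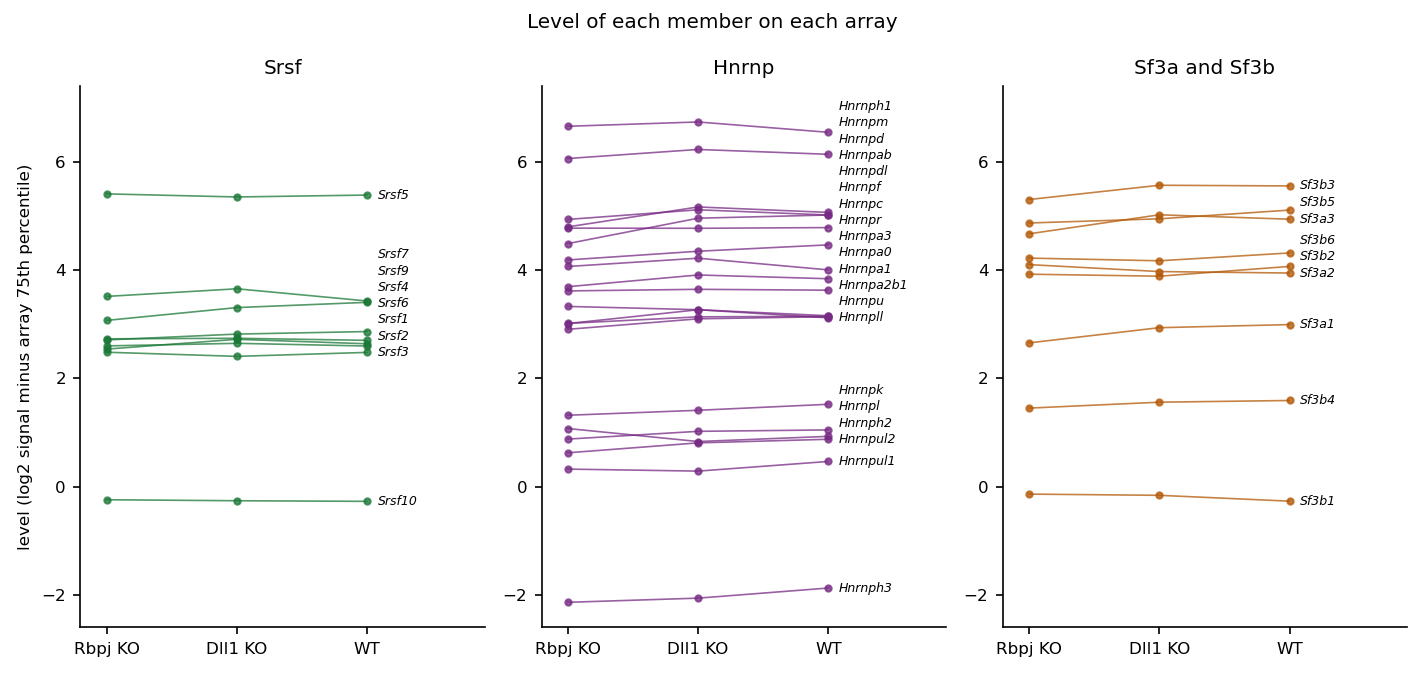
Level of each of the 38 measured members on the Rbpj KO, Dll1 KO and WT arrays, in log2 units relative to the array's 75th percentile, with 1 panel per gene group and 1 line per gene. Most lines are nearly flat, and the steepest is Hnrnpab, at 4.49 in the Rbpj KO, 4.96 in the Dll1 KO and 5.02 in WT. Heights of different genes are not comparable, because each rests on its own oligonucleotides.

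Without Rbpj, no member was 1.5-fold away from WT in either direction, while 11.0% of all measured genes were. The members' median log2 difference was -0.14, with a middle range from -0.24 to 0.02, against -0.07 over all genes and -0.14 over the genes with the highest level. The sign rests on the scaling: 26 of 38 members were below WT as scaled here, 19 with the percentile taken over detected probes, 18 after normexp background correction with quantile normalization, 37 with scaling to the array median and 38 with scaling to spike-in spots. The share of all genes below WT moved with the scaling too: it was 60.3% as scaled here, 41.1% with the percentile over detected probes, 47.4% after normexp, 78.5% with the array median and 95.5% with spike-in scaling. The spike-in scaling moved the median of all genes to -0.66 and the array median to -0.24, so the signs of single genes given below are those of the 75th percentile scaling. Of the genes with the highest level 74.9% were below WT in this comparison. Set against the median of all genes on the same arrays, 24 members lay below it and 14 above. At 1.2-fold, a size chosen after the data had been seen, 7 members were lower in the Rbpj KO, against 23.9% of all genes, and 0 were higher, against 14.6%.

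Without Dll1 the same genes were closer still to WT. As scaled here, all 38 measured members lay within 1.2-fold of WT, as did 78.7% of all genes and 89.1% of those with the highest level. No member was 1.5-fold apart, against 3.3% of all genes. At 1.2-fold 0 members were lower and 0 higher, where 11.4% of all genes were lower and 9.85% higher. The median difference of the members was -0.01, with 20 below WT and 18 above (17 below after normexp with quantile normalization and 35 below with spike-in scaling), while 55.7% of all genes were below (50.2% and 83.3% under those 2 settings). As scaled here the extremes were Hnrnph3, at -0.19, and Srsf7, at 0.23. The members ran from -0.18 to 0.35 after normexp with quantile normalization and from -0.35 to 0.06 with spike-in scaling. Under both of these settings the range passed 1.2-fold, a log2 difference of 0.263.

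Between the knockouts 27 of 38 members were lower in the Rbpj KO, 20 with the percentile over detected probes and 38 with spike-in scaling. The median of the members was -0.11 for the Rbpj KO minus the Dll1 KO, against -0.04 over all genes and -0.08 over those with the highest level. Of all genes 55.9% were lower as scaled here, 38.6% with the percentile over detected probes and 92.1% with spike-in scaling. No member was 1.5-fold apart, against 10.6% of all genes. At 1.2-fold 5 members were lower, against 19.3%, and 0 were higher, against 15.3%.

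**Figure D2:**
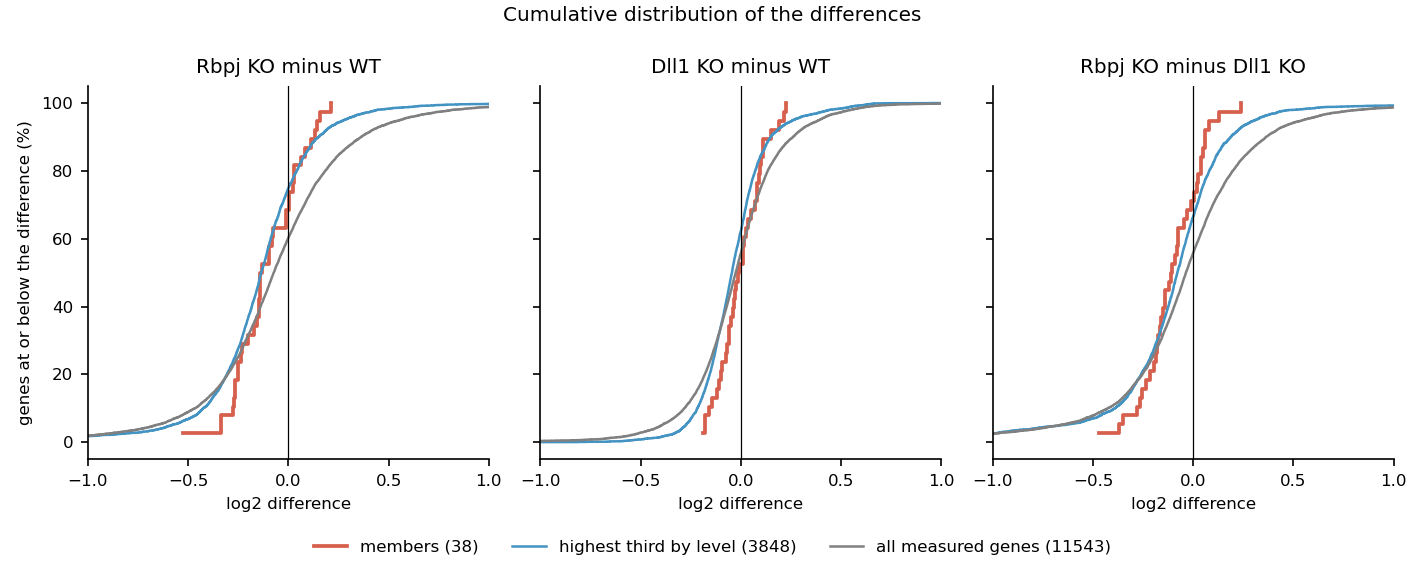
Cumulative share of genes (percent) at or below each log2 difference, for the 38 members, the 3848 genes with the highest mean level and all 11543 measured genes, with 1 panel per comparison. The members' curve runs between -0.53 and 0.21 for the Rbpj KO minus WT and between -0.19 and 0.23 for the Dll1 KO minus WT, without the long tails of the curve for all genes.

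The 3 gene groups did not stand alike in the Rbpj KO. For the Srsf genes the median difference from WT was 0.00, and 3 of 9 stood below, which became 2 of 9 after normexp with quantile normalization and 9 of 9 with scaling to the array median. For the Hnrnp genes the median was -0.14 and 16 of 20 stood below WT, and 11 of 20 both after normexp with quantile normalization and with the percentile over detected probes. For the Sf3a and Sf3b genes the median was -0.14 and 7 of 9 stood below WT, which became 5 of 9 and 6 of 9 under those 2 settings. Against the median of all genes on the same arrays, 3 of 9 Srsf genes, 14 of 20 Hnrnp genes and 7 of 9 Sf3a and Sf3b genes were lower. Medians in the Dll1 KO were 0.01, -0.01 and -0.03 for the Srsf, Hnrnp and Sf3 groups. Whether the groups differ was not tested.

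**Figure D3:**
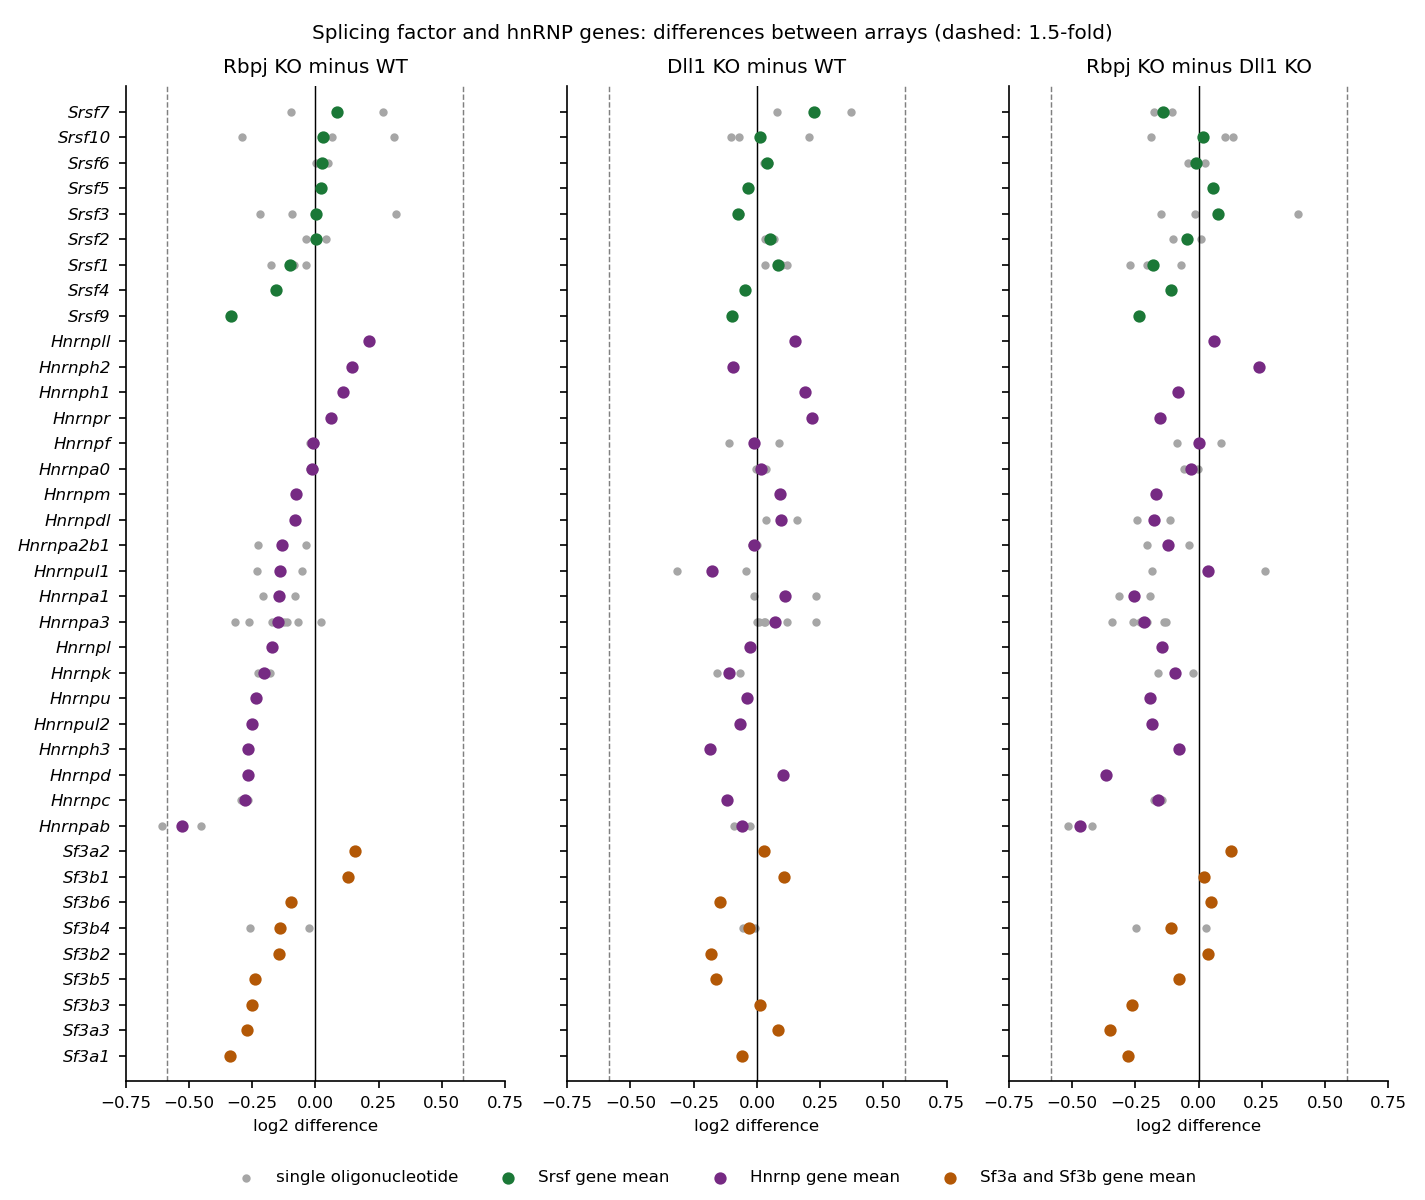
Log2 difference of each member in the 3 comparisons, with coloured points for the gene and grey points for its single oligonucleotides. Dashed lines mark 1.5-fold, a log2 difference of 0.585 either way. No coloured point reaches them, and 1 grey point, an oligonucleotide of Hnrnpab, passes the line in the Rbpj KO minus WT panel.

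Promoters were looked at because the deleted factor binds DNA. RefSeq promoter windows (build GRCm38.p6), each reaching from 250 bases before to 50 after the gene's start, were matched by gene identifier for 34 of the 38 members. Where a gene had several windows, only the first listed was used. The 4 windows printed here are those of Hnrnpab, Srsf9, Srsf7 and Sf3b1. Hnrnpab has the largest difference of the 38 measured members as scaled here. Srsf9, Srsf7 and Sf3b1 hold the core letters of the RBPJ site. The motif searched was TGGGAA on either strand, which reads TTCCCA on the other, and its matches are in capitals. Hnrnpab lies at chr11:51606832-51607131 on the minus strand and holds no match, Srsf9 at chr5:115326927-115327226 on the plus strand, Srsf7 at chr17:80207256-80207555 on the minus strand and Sf3b1 at chr1:55027429-55027728 on the minus strand.
Hnrnpab: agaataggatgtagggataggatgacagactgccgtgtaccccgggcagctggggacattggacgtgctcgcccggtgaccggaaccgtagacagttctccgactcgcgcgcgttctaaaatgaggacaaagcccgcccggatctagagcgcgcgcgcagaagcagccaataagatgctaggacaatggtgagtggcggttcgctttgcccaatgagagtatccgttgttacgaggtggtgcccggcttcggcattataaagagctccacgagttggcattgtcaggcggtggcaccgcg
Srsf9: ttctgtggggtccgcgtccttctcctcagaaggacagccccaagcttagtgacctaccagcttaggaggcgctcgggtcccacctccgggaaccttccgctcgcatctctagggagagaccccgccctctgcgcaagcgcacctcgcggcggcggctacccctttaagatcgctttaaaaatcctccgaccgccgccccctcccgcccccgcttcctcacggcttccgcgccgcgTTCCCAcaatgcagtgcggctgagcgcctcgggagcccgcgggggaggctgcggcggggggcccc
Srsf7: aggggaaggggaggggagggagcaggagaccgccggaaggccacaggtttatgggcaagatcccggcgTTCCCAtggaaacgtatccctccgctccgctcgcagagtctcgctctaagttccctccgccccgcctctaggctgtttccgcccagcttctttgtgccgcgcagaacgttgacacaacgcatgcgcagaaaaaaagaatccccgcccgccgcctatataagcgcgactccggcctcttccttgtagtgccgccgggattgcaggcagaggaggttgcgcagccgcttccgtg
Sf3b1: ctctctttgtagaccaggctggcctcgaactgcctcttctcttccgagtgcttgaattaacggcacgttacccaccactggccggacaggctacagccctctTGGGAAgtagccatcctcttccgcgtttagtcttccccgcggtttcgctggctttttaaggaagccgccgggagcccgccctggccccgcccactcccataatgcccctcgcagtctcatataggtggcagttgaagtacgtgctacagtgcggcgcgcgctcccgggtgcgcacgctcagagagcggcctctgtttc
The core was found in 4 of 34 member windows, or 11.8%, the fourth gene being Srsf1. It was in 23.0% of the 9289 windows of measured genes and in 25.5% of all 27025. Of the 4 genes, Srsf9 and Srsf1 were below WT in the Rbpj KO, by -0.33 and -0.10, and Srsf7 and Sf3b1 above, by 0.08 and 0.13. A second motif, the E-box CACGTG bound by Myc and related factors, was in 4 member windows (Hnrnpa3, Hnrnpd, Hnrnph2 and Hnrnpm), or 11.8%, against 10.4% of measured genes and 7.24% of all. Member windows were rich in the dinucleotide CG, with a median of 28 each, against 20 in measured genes and 7 in all windows. A match describes letters in the window and is not a binding site.

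Among the 9 SR protein genes measured on all 3 arrays Srsf9 differed most without Rbpj, as scaled here. After normexp with quantile normalization Srsf9 was at -0.19 in the Rbpj KO minus WT, against 0.21 for Srsf7. Srsf9, one of the smaller SR proteins, had levels of 3.07 in the Rbpj KO, 3.31 in the Dll1 KO and 3.40 in WT, a log2 difference of -0.33 for the Rbpj KO minus WT. The Rbpj KO array was the lowest and WT the highest, on a single oligonucleotide. Srsf4, which has a long arginine-serine domain, stood at 2.71 in the Rbpj KO, 2.82 in the Dll1 KO and 2.86 in WT. Srsf1, the founding SR protein that binds purine-rich exon enhancers, stood at 2.54 in the Rbpj KO, 2.72 in the Dll1 KO and 2.64 in WT. Both differences lay under the 95th percentile of the spread between spots.

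Several SR genes were nearly level across the arrays. Srsf2 had 2.60 in the Rbpj KO, 2.65 in the Dll1 KO and 2.60 in WT. Srsf5 had 5.41 in the Rbpj KO, 5.35 in the Dll1 KO and 5.39 in WT. Srsf6 had 2.73 in the Rbpj KO, 2.74 in the Dll1 KO and 2.70 in WT. None of these moved by more than 0.06 on any comparison. Srsf7, an SR protein with a zinc knuckle that also acts in mRNA export, was the highest in the Dll1 KO, at 3.51 in the Rbpj KO, 3.65 in the Dll1 KO and 3.43 in WT, a difference of 0.23 for the Dll1 KO minus WT.

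Srsf12, a relative of Srsf10, is the member with a bound only. Its single oligonucleotide was well above background in the Rbpj KO, at -2.84, and in the Dll1 KO, at -2.86, and not well above background in WT, where it read -3.39. As scaled here, against the lowest detectable signal of the WT array, it was at least 1.29-fold higher in the Rbpj KO and at least 1.28-fold higher in the Dll1 KO. These bounds set the knockout signal against the higher of the lowest signal well above background on the WT array and the oligonucleotide's own WT signal. They rest on a single dim spot per array, with signals before scaling of 19.8 in the Rbpj KO, 21.5 in the Dll1 KO and 17.0 in WT. They also rest on the scaling, and were not recomputed under the others. Spike-in scaling moved the members' median in the Rbpj KO minus WT from -0.14 to -0.72. A shift of that size would remove the Rbpj KO bound.

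As scaled here, Hnrnpab had the largest difference of the 38 members measured on all 3 arrays. After normexp with quantile normalization Hnrnpll lay further from WT in the Rbpj KO, at 0.42 against -0.31 for Hnrnpab. Srsf12, known only by its bound, is not ranked. Hnrnpab encodes a protein that binds single-stranded, AU-rich RNA and DNA. Its levels were 4.49 in the Rbpj KO, 4.96 in the Dll1 KO and 5.02 in WT, so that the Rbpj KO was 1.44-fold lower than WT, a log2 difference of -0.53, and the Dll1 KO lay within 0.06 of WT. Both of its oligonucleotides were lower, by -0.60 and -0.45, and they lie in different parts of the array, one in its upper and one in its lower rows. The difference kept its sign under every scaling tried, between -1.11 with spike-in scaling and -0.31 after normexp with quantile normalization. It was larger than the 95th percentile of the spread between spots.

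Hnrnpd and Hnrnpc followed among the Hnrnp genes lower without Rbpj. Hnrnpd, known as AUF1 for its binding to AU-rich elements that shorten the life of cytokine mRNAs, stood at 4.80 in the Rbpj KO, 5.17 in the Dll1 KO and 5.06 in WT. Hnrnpc, which forms tetramers on uridine tracts, stood at 4.19 in the Rbpj KO, 4.35 in the Dll1 KO and 4.47 in WT. The log2 differences for the Rbpj KO minus WT were -0.27 for Hnrnpd and -0.28 for Hnrnpc, each just past the 95th percentile of the spread between spots. After normexp with quantile normalization they were -0.02 and -0.09. Hnrnpd was highest in the Dll1 KO, so its difference between the knockouts was larger, at -0.37.

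Hnrnph3, which binds runs of G with the rest of the H and F group, had low signal: -2.14 in the Rbpj KO, -2.06 in the Dll1 KO and -1.87 in WT. It was the lowest of the Hnrnp genes in the Dll1 KO minus WT, at -0.19. Its relatives went different ways. Hnrnph1 stood at 6.66 in the Rbpj KO, 6.74 in the Dll1 KO and 6.54 in WT, lowest in WT. Hnrnph2 stood at 1.07 in the Rbpj KO, 0.83 in the Dll1 KO and 0.93 in WT, with the largest positive difference of the 38 measured members between the knockouts, 0.24. Hnrnpf, at 4.77 in the Rbpj KO, 4.77 in the Dll1 KO and 4.78 in WT, was level.

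Hnrnpll was the measured member furthest above WT in the Rbpj KO, leaving Srsf12 and its bound aside. It encodes the hnRNP that drives skipping of variable Ptprc exons in activated T cells. It stood at 3.33 in the Rbpj KO, 3.27 in the Dll1 KO and 3.12 in WT, so that both knockouts were above WT, by 0.21 and 0.15. Both values rest on 1 oligonucleotide and, as scaled here, lie under the 95th percentile of the spread between spots. After normexp with quantile normalization they were 0.42 and 0.19. With spike-in scaling all 38 measured members, Hnrnpll included, were below WT in the Rbpj KO. Hnrnpl, its close relative that binds CA repeats, stood at 0.88 in the Rbpj KO, 1.02 in the Dll1 KO and 1.05 in WT, on the other side.

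The remaining Hnrnp genes lay between -0.25 and 0.06 in the Rbpj KO minus WT. Hnrnpa1, an hnRNP that silences exons, stood at 3.01 in the Rbpj KO, 3.27 in the Dll1 KO and 3.16 in WT. Near-identical copies of Hnrnpa1 exist in the genome, so its value is uncertain. Hnrnpa2b1 stood at 3.02 in the Rbpj KO, 3.14 in the Dll1 KO and 3.15 in WT. Hnrnpk, which binds C-rich sequence, stood at 1.32 in the Rbpj KO, 1.41 in the Dll1 KO and 1.52 in WT. Each of these 3 genes was lowest in the Rbpj KO. Hnrnpu, also known as scaffold attachment factor A, had 2.91 in the Rbpj KO, 3.10 in the Dll1 KO and 3.14 in WT. Hnrnpul1 stood at 0.32 in the Rbpj KO, 0.29 in the Dll1 KO and 0.47 in WT, and Hnrnpul2 at 0.63 in the Rbpj KO, 0.81 in the Dll1 KO and 0.88 in WT. The Rbpj KO was lower than WT for Hnrnpu, Hnrnpul1 and Hnrnpul2. Hnrnpa3, a relative of Hnrnpa1 with 7 oligonucleotides, stood at 3.69 in the Rbpj KO, 3.91 in the Dll1 KO and 3.84 in WT. Hnrnpdl stood at 4.94 in the Rbpj KO, 5.11 in the Dll1 KO and 5.02 in WT, and Hnrnpm at 6.06 in the Rbpj KO, 6.23 in the Dll1 KO and 6.14 in WT. These 3 genes were lowest in the Rbpj KO and highest in the Dll1 KO, while Hnrnpa0 was level, with 3.62 in the Rbpj KO, 3.64 in the Dll1 KO and 3.63 in WT. Hnrnpr was highest in the Dll1 KO, with 4.07 in the Rbpj KO, 4.22 in the Dll1 KO and 4.004 in WT, a difference of 0.22 for the Dll1 KO minus WT.

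In the SF3A complex, which joins SF3B to the core of the U2 particle, 2 subunits were lower without Rbpj and 1, Sf3a2, was higher, though Sf3a2 became -0.01 with scaling to the array median. Sf3a1 stood at 2.66 in the Rbpj KO, 2.94 in the Dll1 KO and 2.99 in WT, a difference of -0.34 for the Rbpj KO minus WT. Sf3a3 stood at 4.67 in the Rbpj KO, 5.02 in the Dll1 KO and 4.94 in WT, a difference of -0.27. Sf3a2 stood at 4.10 in the Rbpj KO, 3.97 in the Dll1 KO and 3.95 in WT, a difference of 0.16. The Rbpj KO array was thus the lowest for Sf3a1 and Sf3a3 and the highest for Sf3a2. Each rests on 1 oligonucleotide. With normexp and quantile normalization these differences became -0.14 for Sf3a1, -0.09 for Sf3a3 and 0.28 for Sf3a2.

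In the SF3B complex, which grips the branch point helix, 5 of 6 subunits were below WT in the Rbpj KO, 3 after normexp with quantile normalization, and none by 1.2-fold. Sf3b1, the subunit that clamps the branch point and is mutated in human myelodysplastic syndromes, stood at -0.14 in the Rbpj KO, -0.16 in the Dll1 KO and -0.27 in WT, above WT in both knockouts. Sf3b3 stood at 5.30 in the Rbpj KO, 5.57 in the Dll1 KO and 5.55 in WT. Sf3b5, a small subunit, stood at 4.87 in the Rbpj KO, 4.95 in the Dll1 KO and 5.11 in WT. The Rbpj KO array was lowest for Sf3b3 and Sf3b5, by -0.25 and -0.24 against WT. Sf3b2 had its lowest level in the Dll1 KO, at 3.92 in the Rbpj KO, 3.89 in the Dll1 KO and 4.07 in WT. Sf3b6, the subunit that contacts the branch adenosine, likewise stood at 4.22 in the Rbpj KO, 4.17 in the Dll1 KO and 4.32 in WT. Sf3b4 stood at 1.45 in the Rbpj KO, 1.56 in the Dll1 KO and 1.59 in WT.

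By sign, 17 members were below WT in both knockouts, 9 were above WT in both, 9 were below in the Rbpj KO only and 3 in the Dll1 KO only. As shares of the 38 these are read against 39.9%, 23.8%, 20.5% and 15.8% of all genes in the same 4 patterns. The last 3 are Hnrnph2, Srsf3 and Srsf5. Both comparisons use the same WT array, so the signs are not independent.

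Oligonucleotides of one gene differed by less, in the median, among the members than among all genes, with exceptions among the Srsf genes. The comparison was not repeated on genes of like level, and 29 of the measured members are among the genes with the highest mean level. Of the 39 genes with an oligonucleotide 22 had 1, 13 had 2, 3 had 3 and Hnrnpa3 had 7, and 17 measured members had several. The range of the difference over a gene's oligonucleotides had a median of 0.14 in the Rbpj KO minus WT, against 0.21 over the 2798 genes with several oligonucleotides. It was 0.09 against 0.17 in the Dll1 KO minus WT, and 0.14 against 0.19 between the knockouts. In the Rbpj KO minus WT 1 of 17 members had a range of 1.5-fold or more, against 13.5% of all such genes. For the Dll1 KO minus WT 0 of 17 did, against 6.47%, and between the knockouts 0 of 17, against 11.1%.

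The 1 member was Srsf10, whose protein becomes a splicing repressor when it loses its phosphates. Its 3 oligonucleotides gave -0.29, 0.07 and 0.31 in the Rbpj KO minus WT, a range of 0.60. The mean, 0.03, averages opposite signs, and the gene's level of -0.24 in the Rbpj KO, -0.26 in the Dll1 KO and -0.27 in WT looks flat. The oligonucleotide that was lower lies in the upper rows of the array and the other two in the lower rows. Its level was -2.02 over the 3 arrays. With the upper rows alone, the lower rows alone or the brighter probes alone, no member reached a range of 1.5-fold. These settings left 5, 6 and 13 members with several oligonucleotides. Each leaves out an oligonucleotide that sets the Srsf10 range, so none of them can check that range.

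Srsf3, the smallest SR protein and a partner of the mRNA export receptor, came next. Its oligonucleotides gave 0.32, -0.09 and -0.22 in the Rbpj KO minus WT, the first in the upper rows and the other two in the lower rows. The gene means, 2.48 in the Rbpj KO, 2.41 in the Dll1 KO and 2.48 in WT, hide that split. Srsf7 gave 0.27 and -0.10 in the Rbpj KO minus WT and 0.37 and 0.08 in the Dll1 KO minus WT. Its higher value in the Dll1 KO thus holds the same sign on both oligonucleotides, and its value in the Rbpj KO does not. Opposite signs among a gene's oligonucleotides occurred in 6 of 17 members in the Rbpj KO minus WT, 5 in the Dll1 KO minus WT and 7 between the knockouts, against 37.0%, 41.6% and 36.5% of the 2798 genes with several oligonucleotides.

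**Figure D4:**
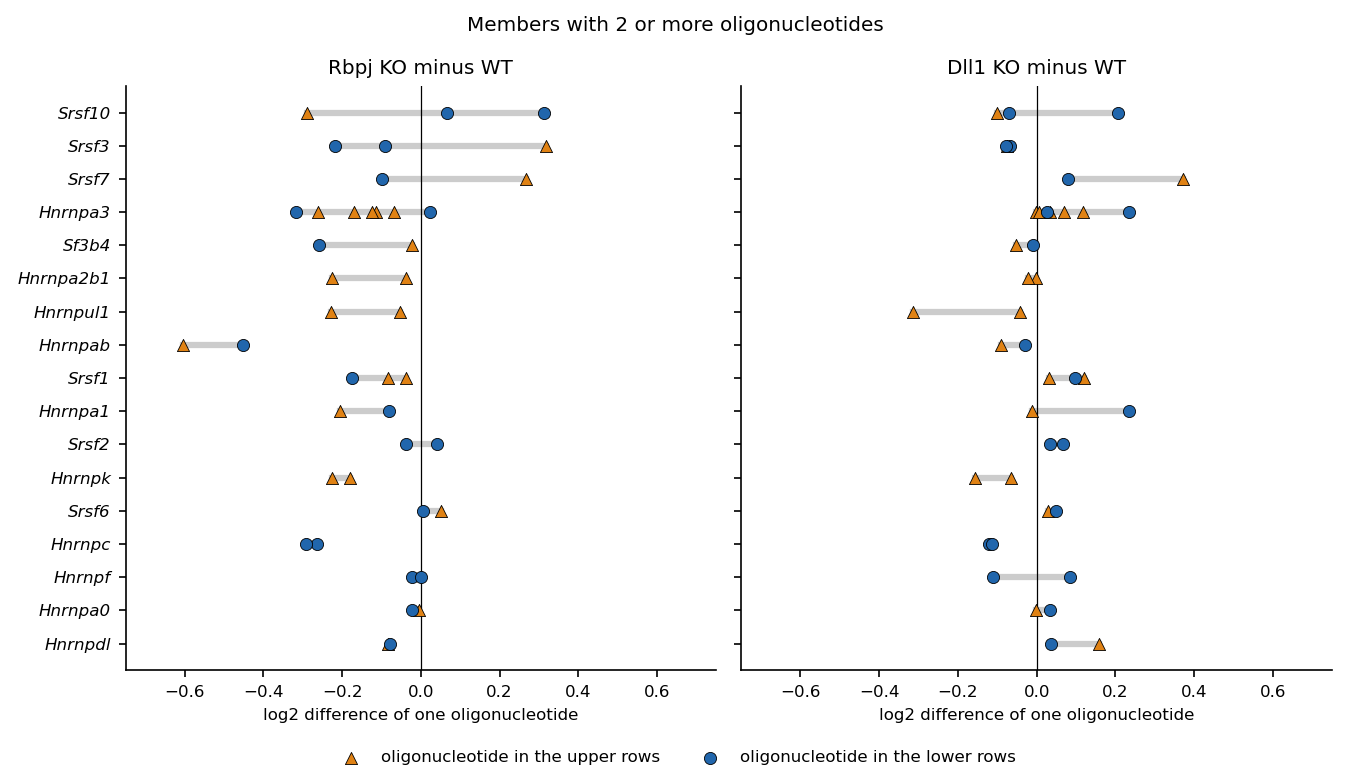
Log2 difference of every single oligonucleotide in the 17 members with more than 1, for the Rbpj KO minus WT and the Dll1 KO minus WT, with a grey bar from the lowest to the highest. Triangles are spots in the upper rows of the array and circles are spots in the lower rows. Srsf10 and Srsf3 cross 0 with the widest bars in the Rbpj KO panel, and both Hnrnpab points lie far to the left.

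Other genes of the splicing machinery were followed in 9 lists that hold 132 measured genes. In the Rbpj KO minus WT the pooled median was -0.09 and 89 of 132 stood below WT. By 1.5-fold 6 were apart, 5 of them lower. The pooled median was 0.01 in the Dll1 KO minus WT, where 0 genes were 1.5-fold apart. Between the knockouts the pooled median was -0.09 and 2 genes were 1.5-fold apart. The shares of all genes past these sizes, and below WT under each scaling, are those given above for the members, with 2 exceptions. In the Dll1 KO minus WT 65.1% of all genes were below WT with the array median. There 49.4% were below with the percentile over detected probes. The alternative scaling printed beside a count differs from list to list, so such counts are not compared between lists.

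The LSm genes, whose proteins form the rings on U6 RNA and on mRNAs bound for decay, were the most uniform list. All 8 were below WT in the Rbpj KO, with a median of -0.33 and 7 at least 1.2-fold lower, and all 8 stayed below WT under every scaling tried, with a median of -0.14 after normexp with quantile normalization. Lsm8, of the nuclear ring, stood at 3.13 in the Rbpj KO, 3.42 in the Dll1 KO and 3.63 in WT. Lsm4 stood at 6.05 in the Rbpj KO, 6.31 in the Dll1 KO and 6.43 in WT. All 8 were below WT in the Dll1 KO as well, with a median of -0.12, which became 6 of 8 after normexp with quantile normalization.

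Proteins of the U particles were also mostly below WT in the Rbpj KO, 17 of 18 with a median of -0.19, and 11 of 18 after normexp with quantile normalization. Snrpb, a core Sm protein, stood at 2.06 in the Rbpj KO, 2.30 in the Dll1 KO and 2.68 in WT, a difference of -0.62 for the Rbpj KO. Snrnp35, of the minor spliceosome, stood at 2.11 in the Rbpj KO, 2.92 in the Dll1 KO and 2.72 in WT, a difference of -0.61. Snrpb was thus below WT in both knockouts and Snrnp35 in the Rbpj KO only. Among partners of SF3B at the branch point, Phf5a, itself a subunit of SF3B whose symbol lies outside the rule, stood at 4.18 in the Rbpj KO, 4.48 in the Dll1 KO and 4.60 in WT. Rbm17 stood at 2.94 in the Rbpj KO, 3.32 in the Dll1 KO and 3.30 in WT. Over the 9 genes of that list the median was -0.07 and 6 stood below WT, and 4 with the percentile over detected probes.

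Later steps of the spliceosome gave a median of -0.09 for the 21 PRPF and tri-snRNP genes, with 17 below WT, and 8 with the percentile over detected probes. Usp39, a tri-snRNP factor, stood at -1.50 in the Rbpj KO, -0.94 in the Dll1 KO and -0.91 in WT. Cdc5l stood at -2.54 in the Rbpj KO, -2.01 in the Dll1 KO and -1.99 in WT. Both had low signal and were lowest in the Rbpj KO. The list's largest differences in the Dll1 KO minus WT were -0.29 for Eftud2, a GTPase of the U5 particle, and -0.28 for Slu7. Of 9 helicases 7 were below WT in the Rbpj KO, with a median of -0.14, and 5 after normexp with quantile normalization. Dhx38, which remodels the spliceosome before the second step, stood at -0.84 in the Rbpj KO, -0.42 in the Dll1 KO and -0.08 in WT, the lowest difference among these genes at -0.76.

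The enzymes that phosphorylate SR proteins, with their nuclear importer, had a median of -0.03 in the Rbpj KO minus WT, with 6 of 10 below, and 2 with the percentile over detected probes. Srpk1, the cytoplasmic SR protein kinase, stood at 1.72 in the Rbpj KO, 1.85 in the Dll1 KO and 2.23 in WT. Clk3 stood at 1.32 in the Rbpj KO, 1.33 in the Dll1 KO and 1.60 in WT. Both kinases were highest in WT.

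SR-related proteins had a median of -0.06 in the Rbpj KO minus WT, with 16 of 23 below WT, and 8 after normexp with quantile normalization. In the Dll1 KO minus WT their median was 0.09, with 18 of 23 above WT. That became 19 both after normexp and with the percentile over detected probes, 12 with scaling to the array median and 6 with spike-in scaling. Against the median of all genes on the same arrays 19 of 23 were above. Srek1, an SR-related splicing regulator, stood at 5.23 in the Rbpj KO, 6.09 in the Dll1 KO and 5.54 in WT, so that the Rbpj KO lay below the Dll1 KO by -0.86 and the Dll1 KO above WT by 0.55. Scaf4 stood at 1.88 in the Rbpj KO, 2.27 in the Dll1 KO and 2.38 in WT. Rnps1, which also joins the exon junction complex, was lowest in the Dll1 KO, at -0.62 in the Rbpj KO, -1.005 in the Dll1 KO and -0.49 in WT.

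The other regulators of splice choice were the one list with a median above 0 in both comparisons with WT as scaled here. In the Rbpj KO minus WT the median was 0.07 with 20 of 29 above WT. That became 24 both after normexp with quantile normalization and with the percentile over detected probes. It became 9 with scaling to the array median and 1 with spike-in scaling, where 78.5% and 95.5% of all genes were below WT. Against the median of all genes on the same arrays 22 of 29 were above. In the Dll1 KO minus WT the median was 0.06 with 23 of 29 above WT. That became 24 both after normexp and with the percentile over detected probes, 17 with the array median and 10 with spike-in scaling. Against the median of all genes 24 of 29 were above. Esrp1, known from epithelial cells, had low signal, at -2.15 in the Rbpj KO, -2.51 in the Dll1 KO and -2.80 in WT, a difference of 0.64 for the Rbpj KO. Fubp1 stood at 0.45 in the Rbpj KO, 0.16 in the Dll1 KO and -0.07 in WT. Tia1, which helps U1 bind weak splice sites, stood at -0.73 in the Rbpj KO, -0.82 in the Dll1 KO and -1.14 in WT. All 3 genes were lowest in WT. Raly, an hnRNP C relative, was highest in the Dll1 KO, at 3.72 in the Rbpj KO, 3.98 in the Dll1 KO and 3.65 in WT.

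In the exon junction complex, which marks spliced mRNA, 3 of 5 genes were below WT in the Rbpj KO, and 2 after normexp with quantile normalization. Eif4a3, its RNA clamp, stood at 1.64 in the Rbpj KO, 1.88 in the Dll1 KO and 2.24 in WT, a difference of -0.60 for the Rbpj KO. Magohb, which sits on that clamp, stood at 1.29 in the Rbpj KO, 1.66 in the Dll1 KO and 1.74 in WT. Both were highest in WT.

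**Figure D5:**
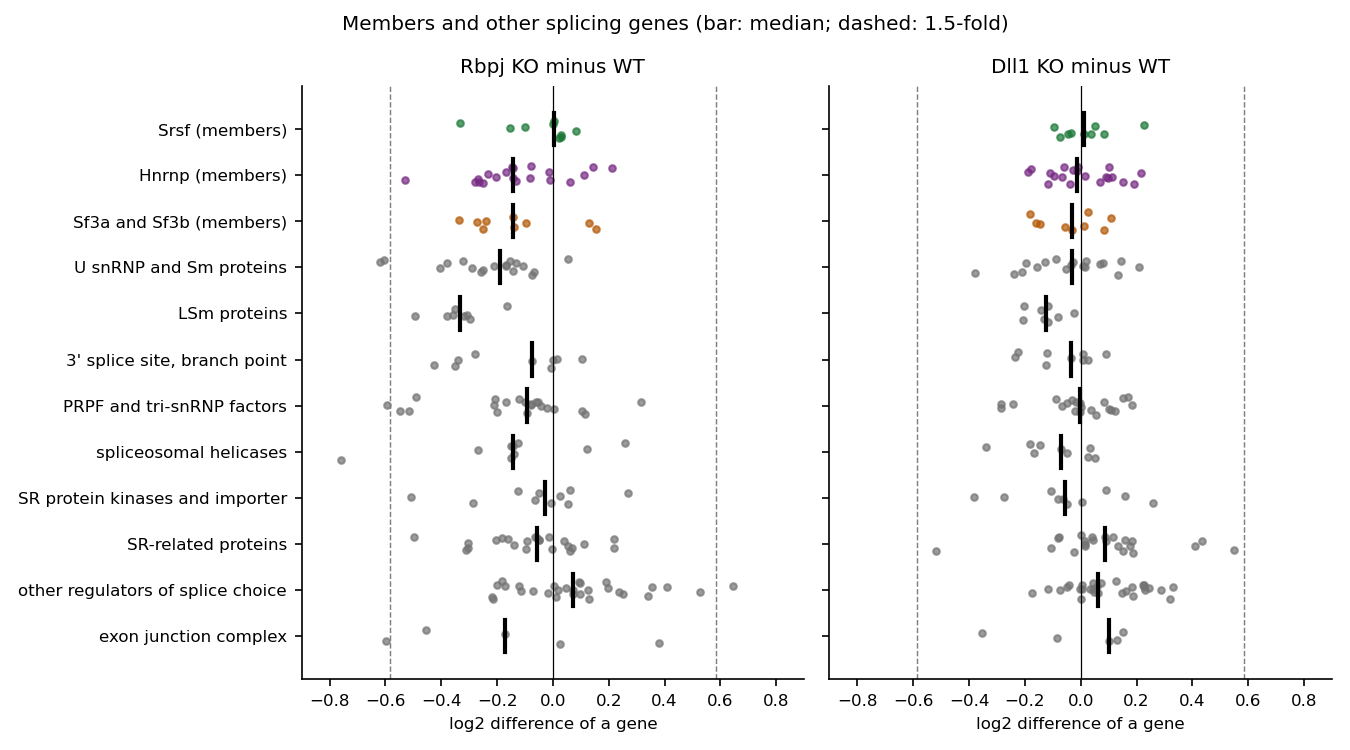
Log2 difference of each gene in the Srsf, Hnrnp and Sf3 groups and in 9 other splicing lists, for the Rbpj KO minus WT and the Dll1 KO minus WT, with a black bar at each median and dashed lines at 1.5-fold. The LSm genes all lie left of 0 in both panels, with medians of -0.33 and -0.12, and 6 genes pass the dashed lines in the Rbpj KO panel.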

How the data were processed

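The authors deposited 1 scanner file per array. It gives intensity values, not logged, for the spot and its background, and the authors' processed intensity, which Feature Extraction had background-subtracted and detrended per the file headers (version 10.7 per the submitters' processing notes, 10.7.1.1 per the file headers). A series table with log2 values was deposited by the authors as well. Compared with the scanner files, 100% of its entries lay within 0.01 of the log2 processed signal after adding 1 number per array (-7.14 for the Rbpj KO, -7.27 for the Dll1 KO and -7.47 for WT). Its column medians are -3.28, -3.40 and -3.44, and genes were not centred. The arrays share 1 slide and 1 scan time, per the file headers.

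Control spots and outlier spots (139, 163 and 143 in the Rbpj KO, Dll1 KO and WT) were left out, and 0 spots were saturated. From each log2 processed signal the 75th percentile of its array was taken off (7.14, 7.28 and 7.47 over 55678 probes). Of these probes 26320 (47.3%), 27908 (50.1%) and 25942 (46.6%) were well above background. Probes were named through their RefSeq accession and the gene table of GRCm38.p6 (27507 probes, 49.4%, 20886 genes). Since the file headers name mm9 as the design's build, no position was taken for a probe. A gene needed a probe well above background on all 3 arrays, which left 11543 genes.

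Groups came from the genotype labels. With 1 array per genotype no test was run, and genes were counted past 1.5-fold. The members and lists were chosen with earlier results of these data known. Members were named when 1.5-fold apart, among the 3 largest differences each way of their group in a comparison with WT, discordant between probes, or bounded only. The text gives further members so that more are accounted for, chosen after their values were seen. From other lists it names genes 1.5-fold apart, or else the 2 with the largest difference. Alternatives were normexp (offset 50, limma 3.58.1 in R 4.3.3) with quantile normalization, other scalings, other filters, parts of the array and other summaries of probes. The steps were tested on simulated data. Python 3.11.15 with pandas 2.3.3 and numpy 2.4.6 was used.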

Additional observations from a re-analysis of the deposited data

How the results depend on the processing

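Differences within each array's scaling set the signs reported for the Rbpj KO, and 1 array per genotype limits every value. No paired analysis was possible because each genotype has 1 array. For the members' median in the Rbpj KO minus WT, -0.14 as reported, the value was 0.0276 after normexp with quantile normalization, -0.30 with scaling to the array median, -0.0042 with the percentile over detected probes and -0.72 with spike-in scaling. Between the knockouts, -0.11 as reported, the same settings gave -0.0249, -0.23, -0.0052 and -0.53. In the Dll1 KO minus WT spike-in scaling gave -0.18. The median of all genes moved too, to -0.66 with spike-in scaling and -0.24 with the array median in the Rbpj KO minus WT, since scaling takes 1 number per array off every gene. The distance of the members' median from that of all genes is therefore fixed under scaling, at -0.06, and it was 0.02 after normexp with quantile normalization, which can change it. The cause of the other shifts was not tested.

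The number of members at least 1.5-fold apart, 0 as reported, became 1 with the array median, 26 with spike-in scaling, 1 on the upper rows alone and 7 at 1.2-fold in the Rbpj KO minus WT. The shares of all genes there were 14.7%, 61.1%, 12.1% and 38.6%. Between the knockouts it became 1 with the array median, 13 with spike-in scaling and 5 at 1.2-fold, a size added after the data had been seen, against 11.8%, 30.9% and 34.6% of all genes. The 1 member whose oligonucleotides differed by 1.5-fold in the Rbpj KO minus WT became 0 after normexp, with the brighter probes, on the upper or the lower rows alone and at 2-fold. The settings by brightness and by rows leave out an oligonucleotide that sets that range, so they cannot check it. Replacing the reference names with the array design's own gene names was not run, since the scanner files used here hold no such column.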
